A study of Mus musculus with 6 samples.

Results

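Mitochondrial ribosomal proteins are the protein part of the mitoribosome, the ribosome inside mitochondria. The genes described here were taken by a rule on names: each gene name in the deposited count table that consists of Mrpl or Mrps, a number and at most a single further letter. The table lists 33924 gene names, of which 76 met this rule, 47 with an Mrpl name (large subunit) and 29 with an Mrps name (small subunit). The rule uses no measured value, though the gene family was picked with earlier results of these data known. Names do not match the assembled ribosome in every case: the proteins of Mrps18a and Mrps30 sit in the large subunit, and the protein of Mrps36 is a part of the 2-oxoglutarate dehydrogenase complex and not a ribosomal subunit. By position in the ribosome, 49 members are large subunit and 26 small subunit proteins.

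The mitoribosome translates the few messages of the mitochondrial genome, all of which encode subunits of the respiratory chain and of ATP synthase. Its proteins are encoded in the nucleus, made in the cytosol and imported, whereas its RNAs are transcribed from mitochondrial DNA. Many of the proteins have bacterial relatives, and others were added in the mitochondrial lineage. In the lung, alveolar type 2 (AT2) cells, which make surfactant, are among the cells rich in mitochondria.

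The study compared urethane-induced lung tumours with control lung by bulk RNA sequencing. Tumours came from FVB/NJ mice, an inbred strain, given the carcinogen urethane at 1 g per kg by intraperitoneal injection (3 libraries, replicates 1, 2 and 4). Control tissue was normal lung of FVB/NJ mice (3 libraries, replicates 1, 2 and 3), and the treatment protocol names saline as the alternative to urethane. Tissue of both groups was harvested at the 6 month time point. Neither the way in which tumour was separated from lung nor whether each library came from its own mouse is given in the labels, so p-values measure the spread between these libraries, which may be partly technical.

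Libraries held 58545354, 62336537 and 48509129 counted reads in tumour replicates 1, 2 and 4, and 38996532, 59037341 and 46025182 in control replicates 1, 2 and 3. All 76 members had reads in every library, from 54 to 4954 per member and library, and all passed the filter on low counts. Tumour replicate 2 stood apart in sex-linked genes, with 3360 CPM of Xist (CPM, read counts brought to a common library size by TMM scaling) and no Y-linked gene checked above 0.216 CPM, against at most 32.9 CPM of Xist in each other library. AT2 markers were called higher in 7 of 8 cases, with a summed level of 28562 to 65068 CPM in tumours and 9921 to 16461 CPM in control lung. Endothelial markers were called lower in 5 of 5, club cell markers in 3 of 3 and ciliated cell markers in 4 of 4. In bulk tissue, fewer cells of a type and less RNA per cell cannot be told apart.

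Mitochondrial ribosomal protein genes were mostly a little higher in tumours, and none was called lower. Of the 76 members, 15 rose (quasi-likelihood test of edgeR with the p adjusted by Benjamini-Hochberg over all 20001 genes tested and a threshold of 0.05, 3 libraries per group) and 61 did not pass. That is 19.7% of the members, beside 18.1% of all genes tested that rose, so the share that rose was near the background with all libraries. None of the members fell by this test, beside 23.8% of all genes tested. Of the 27 members with an unadjusted p under 0.05, all were higher in tumours, and DESeq2 and limma-voom called 0 members lower as well.

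The fitted log2 fold changes of the members ran from -0.32 to 1.21, with a median of 0.38 beside 0.013 for all genes tested. They were above 0 for 65 members (60 with library totals in place of TMM factors) and below 0 for 11, where 50.6% of all genes tested were above 0. The 3 tumour values of a member all lay above its 3 control values for 39 members (26.1% of all genes tested had this pattern), and the 15 that rose were among them. For 2 members, Mrpl55 and Mrps9, all tumour values lay below all control values, a pattern found in 29.9% of all genes tested. Mrpl names counted 11 of 47 that rose (23.4%, median 0.39) and Mrps names 4 of 29 (13.8%, median 0.36), beside 18.1% of all genes tested.

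**Figure D1:**
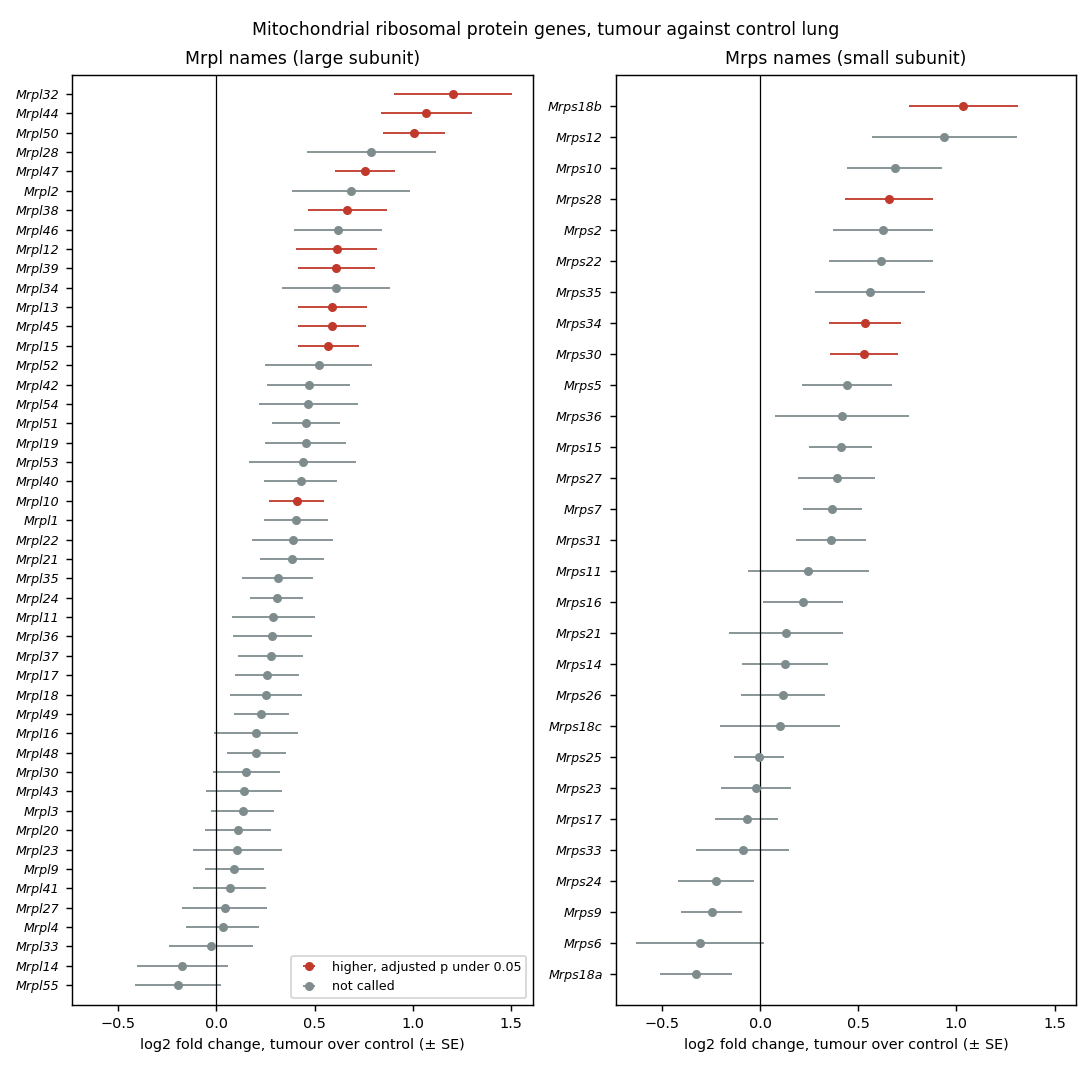
Log2 fold change of each member, tumour over control, with its standard error, for Mrpl names (left) and Mrps names (right), ordered by size; red points have an edgeR adjusted p under 0.05. Most points lie to the right of 0, from -0.32 for Mrps18a to 1.21 for Mrpl32, and no member left of 0 is red.

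The count of members that rose rested on the scaling and on single libraries. With library totals in place of TMM factors it was 5 (Mrpl32, Mrpl44, Mrps18b, Mrpl50 and Mrpl47), or 6.58% of the members, beside 12.7% of all genes tested. That scaling moved the median of all genes to -0.10 and that of the members to 0.26. The gap between these medians was 0.36 on the log2 scale under both scalings. A change of scaling shifts all genes by nearly the same amount, so the gap cannot test the scaling. The count was 6 without control replicate 1, 6 without control replicate 2, 5 without control replicate 3, 17 without tumour replicate 1, 12 without tumour replicate 2 and 11 without tumour replicate 4. In the fits without control replicates 1, 2 and 3 the members that rose were 7.89%, 7.89% and 6.58% of all members, beside 13.4%, 12.6% and 12.4% of all genes tested, so the share lay below the background there and not near it. Without tumour replicates 1, 2 and 4 it was 22.4%, 15.8% and 14.5%, beside 20.7%, 16.7% and 15.2% of all genes tested. For Mrpl names alone it was 5, 6 and 5 without control replicates 1, 2 and 3, and for Mrps names 1, 0 and 0, and 2 without tumour replicate 4. Without tumour replicate 1, 2 members were called lower: Mrps6 (log2 fold change -0.72, edgeR adjusted p = 0.0190) and Mrps18a (-0.45, adjusted p = 0.0427). Against a 2-fold threshold 0 members passed (edgeR, 0 also at an unadjusted p under 0.05), beside 5.28% of all genes tested that rose by this threshold at an adjusted p under 0.05. Mrpl44, Mrpl47 and Mrpl50 were called in all 6 fits that left out a library, and these 3 also passed at an adjusted p under 0.01.

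The largest fold change belonged to Mrpl32, which encodes bL32m, a large subunit protein that the m-AAA protease of the inner membrane matures by cleavage. Mrpl32 (chr13:14702568-14705304, mm9, minus strand) had 17.3, 27.9 and 30.9 CPM in tumour replicates 1, 2 and 4, against 14.7, 10.7 and 7.57 CPM in control replicates 1, 2 and 3. Tumour replicate 1 and control replicate 1 were close to each other, yet the groups did not overlap. The log2 fold change was 1.21 ± 0.30 (SE; edgeR adjusted p = 0.0124), and the adjusted p was 0.0514 without control replicate 2.

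Mrpl44 encodes a relative of RNase III near the exit of the peptide tunnel. It lies at chr1:79772593-79778020 (mm9, plus strand) and had 15.9, 13.2 and 11.9 CPM in the tumours and 6.98, 7.63 and 4.91 CPM in control lung. Every tumour value was over 1.5 times every control value. Its log2 fold change was 1.07 ± 0.23 (edgeR adjusted p = 0.0065).

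Mrpl50, a large subunit protein with no bacterial relative (chr4:49525468-49533965, mm9, minus strand), had 27.8, 31.0 and 33.4 CPM in tumours and 15.6, 16.8 and 13.5 CPM in control lung. The libraries of each group lay close together and the groups far apart. Its log2 fold change of 1.01 ± 0.16 had the smallest p of the members (edgeR adjusted p = 0.0014, and at most 0.0076 with any library left out).

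Mrps18b is among the 3 relatives of bacterial S18 in this genome, at chr17:36047324-36053334 (mm9, minus strand). It had 17.9, 10.7 and 11.3 CPM in tumours and 7.72, 6.96 and 4.79 CPM in control lung, a log2 fold change of 1.04 ± 0.28 (edgeR adjusted p = 0.0177). Tumour replicate 1 was far above the other tumours, and the groups did not overlap. The adjusted p was 0.0526 without control replicate 2 and 0.0673 without control replicate 3. Of its exon bases, 30.5% lie in exons of the name Gm16279, so its reads may include those of that name. Of the 32-base words of its transcript, 64.3% occur in another gene, and how this changed its count was not measured.

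These 4 members had the largest log2 fold changes among those that rose, and the 250 bases before the start of each in the RefSeq annotation of GRCm38.p6 follow here, 5′ to 3′ on the gene's strand. They lie at chr13:14613038-14613287 (minus) for Mrpl32, chr1:79775768-79776017 (plus) for Mrpl44, chr4:49521084-49521333 (minus) for Mrpl50 and chr17:35916441-35916690 (minus) for Mrps18b. Capitals mark matches, on either strand, to GCGCATGCG, the motif of NRF1 (nuclear respiratory factor 1, an activator of nuclear genes for mitochondria), or to GGGGCGGGG, the motif of the SP and KLF families.
Mrpl32: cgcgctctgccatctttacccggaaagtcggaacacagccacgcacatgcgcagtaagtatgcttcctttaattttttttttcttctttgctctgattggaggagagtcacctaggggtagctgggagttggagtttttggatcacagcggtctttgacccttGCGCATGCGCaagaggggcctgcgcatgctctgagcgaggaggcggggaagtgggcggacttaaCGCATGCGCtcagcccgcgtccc
Mrpl44: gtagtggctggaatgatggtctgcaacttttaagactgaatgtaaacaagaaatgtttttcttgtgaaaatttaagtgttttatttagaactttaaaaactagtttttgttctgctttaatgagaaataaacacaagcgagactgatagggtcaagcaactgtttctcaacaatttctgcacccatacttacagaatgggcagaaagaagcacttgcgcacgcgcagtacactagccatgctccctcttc
Mrpl50: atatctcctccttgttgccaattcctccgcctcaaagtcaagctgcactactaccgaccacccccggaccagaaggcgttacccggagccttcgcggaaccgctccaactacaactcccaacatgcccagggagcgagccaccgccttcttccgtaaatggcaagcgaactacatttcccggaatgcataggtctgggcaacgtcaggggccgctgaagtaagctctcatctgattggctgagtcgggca
Mrps18b: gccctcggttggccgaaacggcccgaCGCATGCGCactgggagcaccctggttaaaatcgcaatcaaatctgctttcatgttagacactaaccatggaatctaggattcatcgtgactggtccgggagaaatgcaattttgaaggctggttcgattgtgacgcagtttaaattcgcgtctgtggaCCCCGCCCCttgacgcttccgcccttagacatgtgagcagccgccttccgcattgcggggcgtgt

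In Mrpl32 the capitals are 3 matches to the NRF1 motif, a pair that overlaps on opposite strands, with first bases at -87 and -86 from the start, and another at -23. In Mrps18b they are an NRF1 match at -224 and an SP/KLF match at -65. The windows of Mrpl44 and Mrpl50 held none of the 5 motifs searched. A match is a run of letters and not a measured binding site, and the absence of a match says only that the letters are not in this window.

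RefSeq promoter windows, of 300 bases (250 before the start and 50 after), were available for 67 members as 73 windows. Each motif was searched on both strands. The NRF1 motif was in 7 member windows (9.59%), beside 3.03% of the windows of all genes tested and 1.75% of all 32851 windows. The ETS motif CCGGAAGT was in 12 (16.4%), beside 6.33% and 3.89%, and the YY1 motif AAGATGGCG in 8 (10.96%), beside 2.30% and 1.40%. For the E-box CACGTG the shares were 9.59% beside 9.08% and 7.15%, and for the SP/KLF motif 20.5% beside 18.7% and 11.4%. The median GC content was 58.3% in member windows and 59.3% in those of the genes tested.

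Of the 15 members that rose, 10 had a window. NRF1 matches were in 4 of these 10, those of Mrpl10, Mrpl32, Mrpl39 and Mrps18b, and in the windows of Mrpl9, Mrpl17 and Mrpl22, which did not pass the test. ETS, YY1 and E-box matches were in 0 of the 10. So few windows give no more than a description.

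Large subunit proteins around the exit of the peptide tunnel, where the new chain leaves the ribosome, include those of Mrpl47 and Mrpl45 besides Mrpl44. These genes all passed the test and are grouped here for that reason. Other members with proteins at this site did not pass. Among them were Mrpl22, Mrpl24, Mrpl17 and Mrpl23, with log2 fold changes of 0.39, 0.31, 0.26 and 0.11 (edgeR adjusted p = 0.169, 0.103, 0.238 and 0.736). Whether the site as a whole rose was not tested. Mrpl47 had 25.02, 24.8 and 27.7 CPM in tumours, against 17.1, 14.6 and 14.2 CPM in control lung, with each group narrow and no overlap. Its log2 fold change was 0.76 ± 0.15 (edgeR adjusted p = 0.0048, at most 0.0264 with any library left out). Exons of Actl6a and Ndufb5 cover 17.7% of its exon bases. Mrpl45, whose protein faces the inner membrane, had 15.4, 14.8 and 14.7 CPM in tumours and 10.1, 11.2 and 8.69 CPM in control lung. The tumour values were almost the same in the 3 libraries, and the log2 fold change was 0.59 ± 0.17 (edgeR adjusted p = 0.0251). Its adjusted p was 0.0550 without tumour replicate 2, 0.0596 without tumour replicate 4, 0.0720 without control replicate 1 and 0.0705 without control replicate 3.

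The stalk of the large subunit recruits translation factors, and the proteins of its base and arms include those of Mrpl10 and Mrpl12. The protein of Mrpl12 also binds the mitochondrial RNA polymerase. Mrpl11, also of the stalk base, did not pass (log2 fold change 0.29 ± 0.21, edgeR adjusted p = 0.310), and its groups overlapped. The proteins of the stalk are not all listed here, and whether the stalk as a whole rose was not tested. Mrpl12 had 19.3, 12.6 and 13.8 CPM in tumours and 9.73, 10.7 and 9.44 CPM in control lung. Tumour replicate 1 was the highest, and control libraries were close to each other. Its log2 fold change was 0.61 ± 0.21 (edgeR adjusted p = 0.0452), and the adjusted p was 0.0512 without tumour replicate 1, 0.0630 without tumour replicate 4, and 0.118, 0.0894 and 0.117 without control replicates 1, 2 and 3. Mrpl10 had 23.6, 25.3 and 24.1 CPM in tumours and 17.7, 19.5 and 17.9 CPM in control lung, a log2 fold change of 0.41 ± 0.14 (edgeR adjusted p = 0.0469). The groups were narrow and apart, yet this was the smallest fold change of the members that rose. It passed without tumour replicate 1, but not without tumour replicate 2 (adjusted p = 0.127), tumour replicate 4 (0.0987) or control replicates 1, 2 and 3 (0.130, 0.0830 and 0.0894).

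The other large subunit genes that rose were Mrpl38, Mrpl39, Mrpl13 and Mrpl15, described because they passed and not by the rule for named genes, except Mrpl15. Mrpl38, of the central protuberance, had 18.9, 15.2 and 12.9 CPM in tumours and 10.6, 10.2 and 8.83 CPM in control lung (log2 fold change 0.67 ± 0.20, edgeR adjusted p = 0.0274). Mrpl39, a relative of threonyl-tRNA synthetase, had 27.1, 20.3 and 20.2 CPM in tumours and 14.0, 17.4 and 12.8 CPM in control lung (0.61 ± 0.20, adjusted p = 0.0369). In both genes tumour replicate 1 was the highest library and the groups did not overlap. Mrpl13 had 34.5, 25.6 and 25.9 CPM in tumours and 20.9, 19.1 and 17.2 CPM in control lung (0.59 ± 0.18, adjusted p = 0.0275). Mrpl15 had 19.4, 16.9 and 19.6 CPM in tumours and 12.04, 13.3 and 12.3 CPM in control lung (0.57 ± 0.16, adjusted p = 0.0193). These encode relatives of the bacterial proteins L13 and L15.

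None of these 4 genes passed in all fits that left out a library. For Mrpl38 the edgeR adjusted p was 0.0507 without tumour replicate 2 and 0.0586, 0.0752 and 0.0912 without control replicates 1, 2 and 3. For Mrpl39 it was 0.109 without control replicate 1 and 0.104 without control replicate 3. For Mrpl13 it was 0.0817 without control replicate 2 and 0.0886 without control replicate 3, and for Mrpl15 0.0637 without tumour replicate 4 and 0.0692 without control replicate 1. The log2 fold changes of these 4 genes stayed between 0.46 and 0.80 in those fits.

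**Figure D2:**
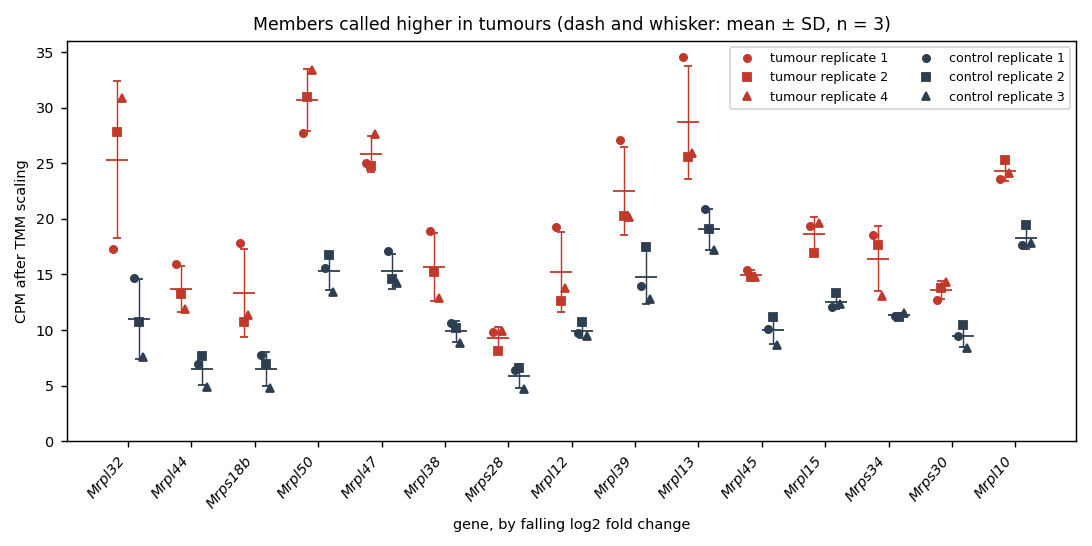
CPM after TMM scaling of the 15 members that rose, in each tumour library (red) and control library (dark blue), with the mean and SD of each group (n = 3), genes ordered by log2 fold change. In every gene the lowest tumour point lies above the highest control point, and in Mrpl32 tumour replicate 1 is the lowest tumour library whereas in 8 of the 15 genes, Mrps18b and Mrpl12 among them, it is the highest.

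Besides Mrps18b, genes with an Mrps name that rose were Mrps28, Mrps34 and Mrps30, of which only Mrps30 was in the rule for named genes. Mrps28, a small subunit gene, had 9.79, 8.12 and 9.92 CPM in tumours and 6.44, 6.57 and 4.65 CPM in control lung (log2 fold change 0.66 ± 0.22, edgeR adjusted p = 0.0448). Control replicate 3 was the lowest library and the groups did not overlap. The adjusted p of Mrps28 was 0.114 without tumour replicate 4 and 0.0811, 0.0778 and 0.119 without control replicates 1, 2 and 3. Mrps30, a large subunit protein despite its name, had 12.7, 13.8 and 14.3 CPM in tumours and 9.43, 10.4 and 8.43 CPM in control lung (0.53 ± 0.17, edgeR adjusted p = 0.0400). Its adjusted p was 0.0898 and 0.111 without tumour replicates 2 and 4, and 0.105, 0.0650 and 0.103 without control replicates 1, 2 and 3.

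Mrps34 had 18.6, 17.6 and 13.1 CPM in tumours and 11.3, 11.2 and 11.6 CPM in control lung (log2 fold change 0.53 ± 0.19, edgeR adjusted p = 0.0485). The 3 control libraries were alike, and tumour replicate 4 lay close to them. It passed without tumour replicate 4, but not without tumour replicates 1 and 2 (adjusted p = 0.0586 and 0.122) or control replicates 1, 2 and 3 (0.119, 0.127 and 0.102). Exons of Mapk8ip3 and Nme3 cover 77.8% of its exon bases, and a read there was counted for each name it covers. Where its reads lie was not measured.

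The 3 relatives of bacterial S18 differed among themselves. Beside Mrps18b, which rose, Mrps18a had 19.9, 15.8 and 13.8 CPM in tumours and 21.1, 18.8 and 22.2 CPM in control lung. Tumour replicate 1 lay within the control range and the other tumours below it. Its log2 fold change of -0.32 ± 0.18 was the lowest of the members and did not pass (edgeR adjusted p = 0.192), and without tumour replicate 1 its adjusted p was 0.0427. Mrps18c had 9.99, 16.4 and 20.4 CPM in tumours and 19.5, 12.6 and 11.5 CPM in control lung, with wide and overlapping groups (log2 fold change 0.10 ± 0.31, edgeR adjusted p = 0.814). Of the 32-base words of Mrps18c, 37.1% occur in another gene. Whether these 3 genes differ from each other in their fold change was not tested.

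Several members had fold changes as large as those that rose but did not pass, with tumour replicate 1 far above the other tumours. Mrps12, whose protein lies at the decoding centre, had 5.41, 2.95 and 2.65 CPM in tumours and 1.47, 2.43 and 1.83 CPM in control lung (log2 fold change 0.94 ± 0.37, edgeR adjusted p = 0.0743). Mrpl28 had 25.1, 14.2 and 9.98 CPM in tumours and 8.75, 11.2 and 8.55 CPM in control lung (0.79 ± 0.33, adjusted p = 0.0889). The groups did not overlap in Mrps12, and in Mrpl28 tumour replicate 4 lay inside the control range. Mrps10 had 21.6, 12.4 and 14.6 CPM in tumours and 10.8, 8.66 and 10.8 CPM in control lung (0.69 ± 0.24, adjusted p = 0.0504), and Mrps5 26.4, 15.2 and 16.5 CPM against 14.4, 14.8 and 13.5 CPM (0.44 ± 0.23, adjusted p = 0.160). Mrpl28 passed without tumour replicate 4 (edgeR adjusted p = 0.0242), and Mrps10 without tumour replicate 2 (adjusted p = 0.0253).

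Mrps22, which encodes a small subunit protein without a bacterial relative, had 7.995, 9.43 and 9.44 CPM in tumours and 5.95, 7.54 and 4.001 CPM in control lung (log2 fold change 0.62 ± 0.27, edgeR adjusted p = 0.0973). Control replicate 3 was low and the groups did not overlap. Mrpl42 had 17.5, 16.97 and 14.9 CPM in tumours and 12.9, 14.0 and 8.77 CPM in control lung (0.47 ± 0.21, adjusted p = 0.112), also without overlap. Mrps36, the member that is no ribosomal subunit, had 3.34, 5.80 and 5.23 CPM in tumours and 5.14, 2.84 and 2.80 CPM in control lung (0.42 ± 0.34, adjusted p = 0.367). Its groups overlapped, and 41.5% of its 32-base words occur in other genes, pseudogenes of Mrps36 among them.

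Other members lay close to their control level. Mrps16 had 11.9, 15.4 and 13.7 CPM in tumours and 14.3, 10.7 and 10.2 CPM in control lung (log2 fold change 0.22 ± 0.20), Mrpl3 21.3, 19.5 and 21.2 CPM against 18.6, 21.6 and 16.3 CPM (0.13 ± 0.16), and Mrps26 9.56, 7.51 and 9.55 CPM against 9.51, 6.99 and 8.06 CPM (0.12 ± 0.21). Mrpl41 had 9.58, 8.87 and 7.98 CPM in tumours and 8.48, 8.81 and 7.94 CPM in control lung (0.07 ± 0.18). In these 4 genes the groups overlapped, and the edgeR adjusted p ran from 0.428 for Mrps16 to 0.797 for Mrpl41. With library totals in place of TMM factors, the log2 fold change of Mrpl3 was 0.02, that of Mrps26 0.02 and that of Mrpl41 -0.04.

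On the low side, Mrps6 had 9.84, 5.17 and 4.25 CPM in tumours and 7.25, 8.50 and 8.08 CPM in control lung (log2 fold change -0.31 ± 0.32, edgeR adjusted p = 0.487). Tumour replicate 1 was above all control libraries and the other tumours were below them. Exons of Slc5a3 cover 43.8% of its exon bases. Mrps9 had 20.6, 18.2 and 20.7 CPM in tumours and 26.2, 22.9 and 21.4 CPM in control lung (-0.25 ± 0.15, adjusted p = 0.237), and Mrpl55 4.77, 4.53 and 4.60 CPM against 6.06, 5.09 and 4.79 CPM (-0.20 ± 0.22, adjusted p = 0.506). In these 2 genes every tumour library lay below every control library, by little. Mrps24 had 9.40, 7.97 and 7.59 CPM in tumours and 10.3, 10.3 and 8.55 CPM in control lung (-0.22 ± 0.19, adjusted p = 0.389), and Mrpl14 8.75, 9.73 and 8.66 CPM against 13.1, 7.66 and 9.93 CPM (-0.17 ± 0.23, adjusted p = 0.584), both with overlap.

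In the common nomenclature of ribosomal proteins, 29 members are named as particular to mitochondria, 19 as shared with bacteria alone and 27 as shared by all ribosomes. The first class holds Mrps18a and Mrps18b, though both are relatives of bacterial S18. Of the first class 8 rose (27.6%), of the second 3 (15.8%) and of the third 4 (14.8%), beside 18.1% of all genes tested. The median log2 fold changes were 0.46, 0.26 and 0.31. The difference between these classes was not tested. With each library left out in turn, the first count was 2 to 8, the second 0 to 3 and the third 2 to 7. The low values came without control replicates: the first was 3, 4 and 2 without control replicates 1, 2 and 3, the second 1, 0 and 1, and the third 2 each time. Without tumour replicate 1 the third was 7, and without tumour replicate 2 the first was 4. Across the fits that left out a library, the share of all genes tested that rose also moved. It was lowest without control replicate 3 (12.4%) and highest without tumour replicate 1 (20.7%). By position in the ribosome, 12 of 49 large subunit proteins rose (24.5%, median 0.39) and 3 of 26 small subunit proteins (11.5%, median 0.30). The first of these counts was 5, 6 and 5 without control replicates 1, 2 and 3. The other was 1, 0 and 0 without them and 2 without tumour replicate 4. Of the small subunit proteins with relatives in all ribosomes, edgeR called 0 of 11 higher (5 at an unadjusted p under 0.05), limma-voom 0 and DESeq2 2.

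Across the members, libraries differed within each group. The summed level of the 76 members was 1321, 1202 and 1207 CPM in tumour replicates 1, 2 and 4, against 1062, 1012 and 924 CPM in control replicates 1, 2 and 3, that is 1243 ± 67.4 CPM in tumours and 999 ± 70.0 CPM in control lung (SD, n = 3 each). With TMM scaling the groups did not overlap, and the mean was 1.24 times as high in tumours. By library totals alone they overlapped. Control replicate 2 had 66586 member reads of 59037341, a larger share than the 66911 of 62336537 in tumour replicate 2. Tumour replicate 1 was the highest library for 40 members and control replicate 3 the lowest for 45. How often these libraries were highest or lowest among all genes tested was not counted. After taking each member's mean over the 6 libraries as 0, the median member stood at 0.24, 0.13 and 0.085 log2 CPM in the tumours and at -0.10, -0.13 and -0.27 log2 CPM in control lung.

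**Figure D3:**
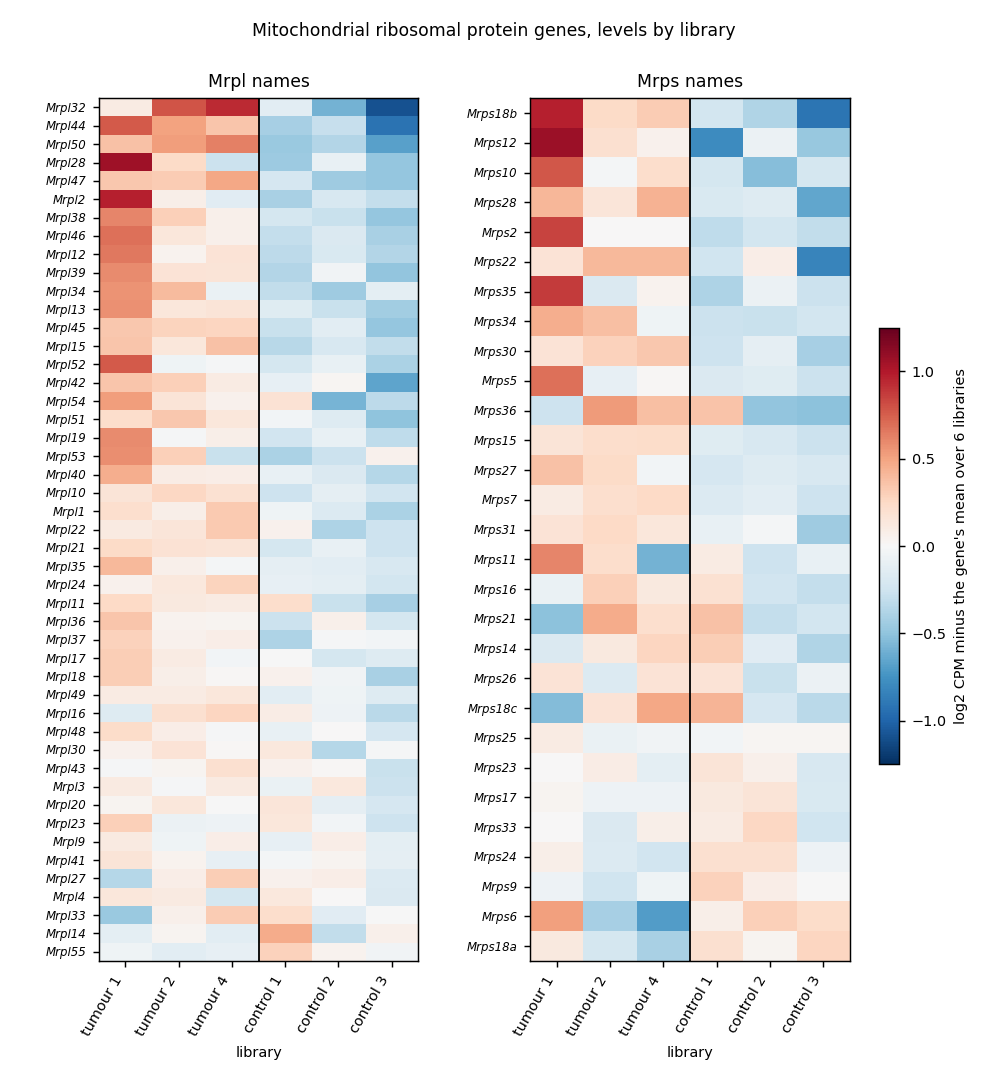
Log2 CPM of each member minus its mean over the 6 libraries, tumour libraries left of the line and control libraries right of it, with Mrpl names in the left panel and Mrps names in the right panel, each ordered by log2 fold change. Tumour replicate 1 is the highest library for 40 members and control replicate 3 the lowest for 45, and in the lower rows the difference between groups is lost.

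Tumour replicate 1 was above both other tumours for 45 members and below both for 19, so its departure was not in a single direction. It was at least 1.5 times the mean of the other tumours for 11 members, with Mrps6 (2.09 times), Mrpl28 (2.08 times) and Mrpl2 (2.003 times) at the top. The reverse, at least 1.5 times lower, held for 5: Mrps18c, Mrps21, Mrpl32, Mrps36 and Mrpl33. None of these counts was made over all genes tested, so they are not shown to be particular to the members. The genes Mrpl2, Mrps21 and Mrpl33 were named after their values were seen. Mrps21 had 10.6, 20.9 and 17.6 CPM in tumours and 19.6, 12.3 and 12.96 CPM in control lung, and Mrpl33 had 33.5, 48.3 and 57.7 CPM against 53.9, 42.1 and 46.2 CPM, with overlap in both. Proliferation markers (5 genes, 5 called higher) moved with this library, with a summed level of 344, 136 and 140 CPM in tumour replicates 1, 2 and 4, against 39.3 to 59.5 CPM in control lung. Their part in the result was not tested.

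The summed level of Mrpl genes was 843, 781 and 785 CPM in tumours and 653, 629 and 568 CPM in control lung, a mean 1.30 times as high. For Mrps genes it was 478, 421 and 422 CPM in tumours and 409, 383 and 356 CPM in control lung, 1.15 times as high. The ratio of the first sum to the second was therefore 1.77, 1.85 and 1.86 in the tumours and 1.595, 1.64 and 1.594 in control lung, without overlap. Mrps25 alone gave 70.0 to 79.6 CPM in tumours and 72.2 to 75.3 CPM in control lung, and 53.7% of its exon bases lie in exons of Nr2c2 (it was named after its values were seen). Leaving out the 17 members with over 10% such overlap, the ratio averaged 2.06 ± 0.045 in tumours and 1.85 ± 0.067 in control lung (SD, n = 3 each).

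Levels per length were compared as RPKM, the TMM-scaled CPM per kilobase of exon bases in the deposited table, averaged over all 6 libraries. The median member stood at 6.99 RPKM. The highest were Mrpl32 (23.7), Mrps16 (22.4) and Mrpl42 (21.3), and the lowest Mrps10 (1.63), Mrps26 (1.96) and Mrps5 (2.55). Mrpl32 came first through the tumours, with 33.0 ± 9.25 RPKM in tumours and 14.3 ± 4.67 RPKM in control lung (SD, n = 3 each). In control lung it stood below Mrps16 (20.8), Mrpl42 (17.8), Mrpl24 (15.6) and Mrpl52 (15.5), though from the last 3 by less than its own SD. The exon bases of a name join all its annotated isoforms, 8079 for Mrps10 and 768 for Mrpl32, and which of these exons are in use was not measured, so the order depends on the annotated lengths. Levels on this scale differed by over 10 times between members. In Mrpl32 the tumours had 22.6, 36.3 and 40.2 RPKM and control lung 19.2, 13.9 and 9.86 RPKM. In Mrps16 the values were 20.9, 27.3 and 24.2 RPKM in tumours and 25.3, 18.8 and 18.1 RPKM in control lung, with overlap.

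Reads could be shared with other genes in some members, since a read over several names was counted for each. Exon overlap was over 10% for 17 members. Over 10% of the 32-base words occurred in another gene for 27, and how such words changed the counts was not measured. Of the 46 members with neither, 9 rose (19.6%, beside 18.1% of all genes tested) and 0 were called lower (edgeR). The median log2 fold change of the 46 was 0.38. Of the 15 that rose, 5 had exon overlap over 10%: Mrps34, Mrps18b and Mrpl47, and also Mrpl10 (14.1%, with Gm11574) and Mrpl12 (13.1%, with Gm16755).

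Other proteins of mitochondrial gene expression were compared by lists, read against the 18.1% of all genes tested that rose and the 23.8% that fell. In fits without tumour replicates 1, 2 and 4, the share of all genes tested that rose was 20.7%, 16.7% and 15.2%. Without control replicates 1, 2 and 3 it was 13.4%, 12.6% and 12.4%. In lists with 0 genes called lower by edgeR, DESeq2 and limma-voom also called 0, and 0 had an unadjusted p under 0.05 on that side, except 1 subunit of oxidative phosphorylation (edgeR and limma-voom). Of 8 further mitoribosome proteins whose names do not start with Mrpl or Mrps, 1 rose and 0 were called lower, with a median log2 fold change of 0.21 (0.094 with library totals only). Dap3, a small subunit protein that binds GTP, had 37.7, 30.4 and 33.3 CPM in tumours and 21.8, 27.3 and 23.5 CPM in control lung (0.48 ± 0.16, edgeR adjusted p = 0.0398). Ptcd3, another small subunit protein, had 55.9, 33.6 and 37.5 CPM in tumours and 27.3, 32.04 and 23.6 CPM in control lung (0.61 ± 0.22, adjusted p = 0.0558). Neither gene's groups overlapped. Ptcd3 passed without tumour replicate 2 (adjusted p = 0.0309). The adjusted p of Dap3 was 0.0811 without tumour replicate 4, 0.130 without control replicate 1 and 0.0842 without control replicate 3. The count of the list that rose was 2 without tumour replicate 2 and 0 without tumour replicate 4 and control replicates 1 and 3.

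Among 13 mitochondrial translation factors, 2 rose and 0 were called lower, with a median of 0.07 that was -0.05 with library totals only. The median was 0.19 without tumour replicate 1, 0.15 without control replicate 2 and 0.040 without control replicate 3. Tufm, the mitochondrial elongation factor Tu, had 28.4, 23.3 and 18.2 CPM in tumours and 11.5, 12.6 and 11.9 CPM in control lung (log2 fold change 0.95 ± 0.19, edgeR adjusted p = 0.0050). Tsfm, its exchange factor, had 11.3, 6.77 and 5.40 CPM in tumours and 4.16, 3.95 and 4.57 CPM in control lung (0.89 ± 0.30, adjusted p = 0.0453). Both genes were apart in every library, and tumour replicate 1 was the highest. The adjusted p of Tsfm was 0.0683 without tumour replicate 1 and 0.114, 0.131 and 0.0996 without control replicates 1, 2 and 3. The count of 2 was 1 without each of the control replicates 1, 2 and 3.

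Mitochondrial tRNA synthetases counted 4 that rose (Yars2, Rars2, Ears2 and Vars2) and 1 called lower (Lars2) of 17, with a median of 0.31 (0.20 with library totals only). Yars2, for tyrosine, had 18.8, 10.9 and 13.4 CPM in tumours and 6.82, 6.46 and 6.46 CPM in control lung (log2 fold change 1.13 ± 0.23, edgeR adjusted p = 0.0053), and Rars2, for arginine, 30.1, 25.5 and 29.2 CPM against 19.5, 18.6 and 15.1 CPM (0.67 ± 0.16, adjusted p = 0.0113). These 2 passed with any library left out. Lars2 was listed at 1201, 1597 and 5101 CPM in tumours and 26563, 9047 and 4659 CPM in control lung, far above the other synthetases and with overlapping groups. None of the 32-base words of its GENCODE M21 transcripts occurred in mt-Rnr1 or mt-Rnr2. The older exon models used for counting and inexact matches were not searched, and whether its reads come from Lars2 RNA was not tested, so neither its level nor its call is taken as that of the synthetase. It did not pass without tumour replicate 1 (adjusted p = 0.0655), tumour replicate 2 (0.0887), control replicate 1 (0.139) or control replicate 2 (0.0602). Ears2 did not pass without control replicate 3 (0.0569), and Vars2 not without control replicates 1 and 2 (0.0510 and 0.0506).

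Of 24 mitoribosome assembly genes, 4 rose (C1qbp, Tfb1m, Noa1 and Fastkd2) and 2 fell (Mterf4 and Ybey), with a median of 0.17. The median was 0.034 without tumour replicate 1, 0.099 without control replicate 1 and 0.062 with library totals only. Mterf4, which guides an rRNA methyltransferase to the large subunit, had 16.95, 16.5 and 17.7 CPM in tumours and 34.8, 32.4 and 39.01 CPM in control lung (log2 fold change -1.05 ± 0.14, edgeR adjusted p = 0.000656). C1qbp, a matrix protein, had 27.3, 26.8 and 33.8 CPM in tumours and 19.2, 15.4 and 15.7 CPM in control lung (0.81 ± 0.17, adjusted p = 0.0059). Both were apart in every library and passed with any library left out, as did Tfb1m, an rRNA methyltransferase gene. Noa1 was lost without control replicates 2 and 3 (adjusted p = 0.0558 and 0.0520), Fastkd2 without tumour replicate 4 and control replicates 1, 2 and 3 (0.0652, 0.109, 0.0539 and 0.0984) and Ybey without tumour replicates 2 and 4 and control replicates 1, 2 and 3 (0.0757, 0.0965, 0.0756, 0.138 and 0.0778). The count that rose was 2 without control replicate 2 and 2 without control replicate 3. The count that fell was 1 without each library other than tumour replicate 1.

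Genes for copying and transcribing mitochondrial DNA counted 4 that rose of 16 (Hsd17b10, Twnk, Ssbp1 and Tefm) and 0 called lower, with a median of 0.38. Hsd17b10, a subunit of mitochondrial RNase P, had 45.1, 50.2 and 46.6 CPM in tumours and 19.6, 19.6 and 14.8 CPM in control lung (log2 fold change 1.39 ± 0.16, edgeR adjusted p = 0.000293), with the groups far apart and a call in all fits that left out a library. Twnk, the mitochondrial DNA helicase, had 21.4, 14.1 and 12.8 CPM in tumours and 6.79, 9.62 and 9.48 CPM in control lung (0.90 ± 0.25, adjusted p = 0.0218, and 0.0773 without control replicate 1). Ssbp1 did not pass without tumour replicates 1 and 4 and control replicates 2 and 3 (adjusted p = 0.0520, 0.0922, 0.127 and 0.123), nor Tefm without tumour replicate 4 and control replicates 1, 2 and 3 (0.0998, 0.130, 0.0668 and 0.0983). The count of 4 was 2 without tumour replicate 4 and without each of the control replicates 1, 2 and 3.

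Of 12 regulators of mitochondrial biogenesis, 4 rose (Ppargc1a, Myc, Pprc1 and Gabpb1) and 1 fell (Esrrg), with a median of 0.36. Ppargc1a, the coactivator PGC-1α, had 25.1, 22.6 and 24.0 CPM in tumours and 7.04, 9.01 and 6.88 CPM in control lung (log2 fold change 1.65 ± 0.18, edgeR adjusted p = 0.000192). Esrrg, an orphan nuclear receptor, had 1.21, 0.593 and 0.825 CPM in tumours and 2.53, 3.68 and 2.88 CPM in control lung (-1.79 ± 0.36, adjusted p = 0.0048). Groups did not overlap in either gene, and both passed with any library left out, as did Myc. Pprc1 was lost without control replicates 1 and 2 (adjusted p = 0.0578 and 0.0580), and Gabpb1 without tumour replicates 2 and 4 and control replicates 1 and 3 (0.0512, 0.0731, 0.0898 and 0.0598). Without control replicate 1 the count that rose was 2.

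**Figure D4:**
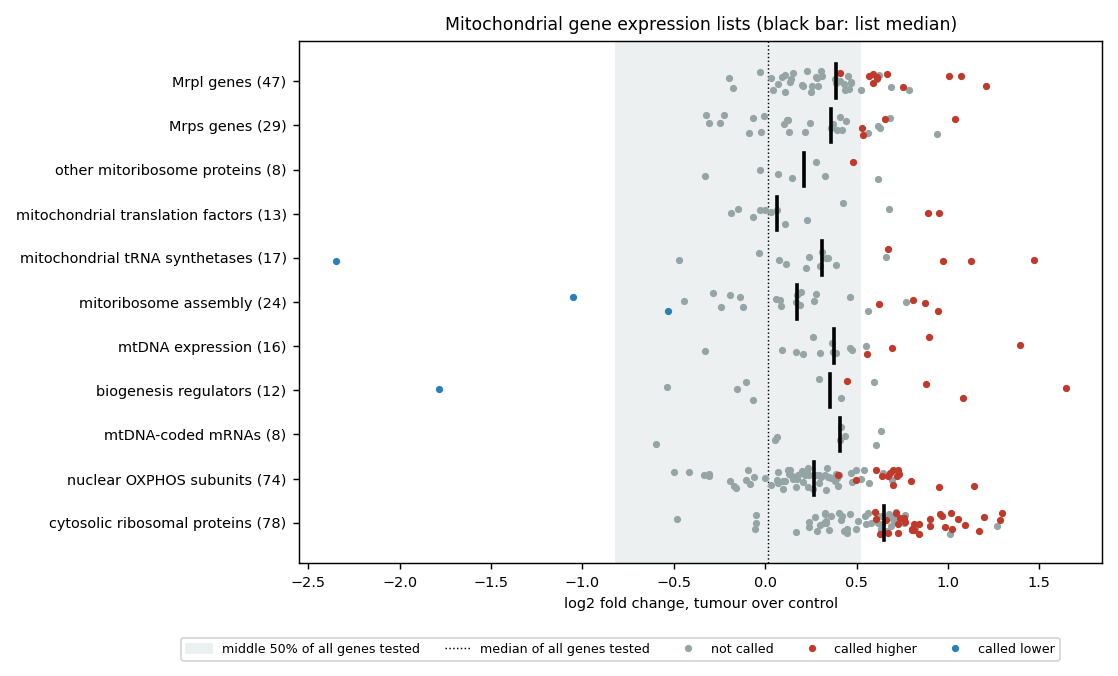
Log2 fold change, tumour over control, of each tested gene in the members and in lists of related genes, with the number of genes in brackets, a black bar at each list's median, and the middle 50% of all genes tested in grey. The medians of Mrpl genes (0.39) and Mrps genes (0.36) lie right of the all-gene median (0.013) and left of that of cytosolic ribosomal proteins (0.65).

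The messages that the mitoribosome translates and its own RNAs were measured as RNA only, and none of those tested passed with all libraries. Of the 13 protein-coding transcripts of the mitochondrial genome, 8 passed the filter on low counts, and edgeR called 0 of these (0 with an unadjusted p under 0.05), DESeq2 0 and limma-voom 0, with a median of 0.41. The median was 0.18 without control replicate 3, 0.28 without tumour replicate 4 and 0.66 without control replicate 1. mt-Co1 had 4537, 6697 and 6459 CPM in tumours and 4797, 4402 and 2407 CPM in control lung (log2 fold change 0.61 ± 0.32, edgeR adjusted p = 0.161). mt-Nd2 had 433, 749 and 659 CPM in tumours and 1400, 793 and 598 CPM in control lung (-0.60 ± 0.34, adjusted p = 0.196). In both the groups overlapped. Without control replicate 1, mt-Nd6 rose (0.87, adjusted p = 0.0373), named because its call changed. The ribosomal RNAs mt-Rnr1 and mt-Rnr2 had log2 fold changes of -0.10 ± 0.38 and 0.30 ± 0.41 (edgeR adjusted p = 0.855 and 0.590).

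Nuclear subunits of oxidative phosphorylation, the partners of the proteins so made, counted 14 that rose of 74 and 0 called lower (median 0.27). Cyc1, cytochrome c1, had 64.7, 43.5 and 37.1 CPM in tumours and 22.0, 20.8 and 23.0 CPM in control lung (1.14 ± 0.22, edgeR adjusted p = 0.0034), and Sdhd, of complex II, 65.8, 63.6 and 59.6 CPM against 38.6, 43.4 and 36.8 CPM (0.67 ± 0.14, adjusted p = 0.0047). Without tumour replicate 1 the count was 23, beside 20.7% of all genes tested, and without control replicate 3 it was 9, beside 12.4%. The median was 0.40 without control replicate 1 and 0.15 with library totals only. Cytosolic ribosomal proteins counted 30 that rose of 78 tested and 0 called lower (median 0.65). Rpl5 had 588, 429 and 507 CPM in tumours and 290, 270 and 255 CPM in control lung (0.90 ± 0.17, adjusted p = 0.0038), and Rpl3 818, 470 and 516 CPM against 254, 274 and 258 CPM (1.20 ± 0.23, adjusted p = 0.0038). Their count was 6 without control replicate 2, beside 12.6% of all genes tested, and 6 without control replicate 3, beside 12.4%. The summed level of the cytosolic ribosomal proteins was 31267, 20859 and 20978 CPM in tumour replicates 1, 2 and 4, against 19495, 12978 and 14397 CPM in control lung. As for the members, tumour replicate 1 was the highest tumour. The difference between the fold changes of these lists and those of the members was not tested.

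Cell types other than AT2 cells differed between the groups. Markers of cardiac muscle, which lines pulmonary veins in the mouse and is rich in mitochondria, were called lower in 5 of 5 cases, with a summed level of 8.01 to 30.3 CPM in tumours and 82.2 to 534 CPM in control lung. Of these, Myl7 had no read in tumour replicates 1 and 4. Fibroblast markers fell in 4 of 5 cases, smooth muscle markers in 3 of 3, T and NK cell markers in 4 of 4, B cell markers in 3 of 3 and neutrophil markers in 3 of 3. Of 6 AT1 markers, for the flat cells of the alveolus, 4 fell and 1 rose (0 rose without tumour replicate 2 or any control replicate), and of 5 macrophage markers 1 rose. Proliferation markers rose in 5 of 5. The part of these differences in the levels of the mitochondrial ribosomal protein genes was not tested.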

How the data were processed

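Gene expression was measured by RNA sequencing in 3 tumour and 3 control lung libraries. The deposited values are raw counts of reads for every gene name and library, beside the exon bases of each name. Per the file headers, counting was done by the authors with featureCounts 1.6.5 on GENCODE vM1 exons, joined by gene name. A read over several names was counted for each, and no strand, pair or multi-mapping option was given, so overlapping and antisense genes can share reads. STAR, limma, edgeR, R 3.6.0 and the builds GRCm38 and mm9 stand in the submitters' processing notes. Coordinates of genes are those of the deposited table (mm9), and those of promoters are RefSeq's (GRCm38.p6). All columns were used.

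Counts were tested with edgeR 4.0.16 in R 4.3.3 as deposited: filterByExpr (minimum count 10), TMM scaling, and its quasi-likelihood F test between both groups without covariates. P-values were adjusted by Benjamini-Hochberg over all 20001 genes tested, with a threshold of 0.05. Standard errors come from the F statistic. Log2 CPM used a prior count of 2. At totals from 38996532 to 62336537 reads, a floor of 3 counts lies at 0.0481 to 0.0769 CPM, which covers counting error only.

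The gene family, and with it its members, the gene lists and the motifs were chosen with earlier results of these data known. Named members were the 6 largest, the 6 smallest and the 6 most significant changes, the 3 highest and 3 lowest RPKM, and 12 chosen by their role. Of each other list, the 2 genes with the smallest p were named. Further genes were named after their values were seen, because they passed the test or changed their call. Older names were used to match 7 mitoribosome assembly genes, 5 genes of mitochondrial DNA expression, 1 biogenesis regulator and 1 macrophage marker. Mterf4, Noa1, Twnk and Tefm were among these. Exon overlap came from the deposited table and shared 32-base words from GENCODE M21 transcripts, for Lars2 against both mitochondrial rRNAs. Libraries of a group differed beyond sampling noise (chi-square over its degrees of freedom 63.2 to 277 among tumours and 88.6 to 153 among controls), so none was merged.

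The fitting code was tested on simulated data with known fold changes, a check of the code and not of how its p-values behave in these libraries. Alternatives were DESeq2 1.42.0, limma-voom (limma 3.58.1), other scalings, filters and thresholds, a 2-fold test, a replicate block, leaving out single libraries, and leaving out members with overlapping exons.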

Additional observations from a re-analysis of the deposited data

How the results depend on the processing

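Of the 15 members that rose with edgeR and TMM scaling, DESeq2 called 15 (18 members in all) and limma-voom 13. With DESeq2 23.7% of the members rose, beside 11.6% of all 33924 gene names. That base includes names without any read (26914 had reads) and names that the default filter of DESeq2 can set aside. The share of members therefore cannot be read as above the background there. With limma-voom 17.1% of the members rose, beside 17.8% of all genes tested. With library totals only the count was 5, against a 2-fold change 0, at an adjusted p under 0.01 it was 3, and with a replicate block 0. Of all genes tested, 12.7% rose with library totals only, 5.28% against a 2-fold change and 5.46% with a replicate block. With each library left out the count of members that rose ran from 5 to 17, and that of members called lower from 0 to 2. The number of genes changed in either direction was 8397. It was 5628 at an adjusted p under 0.01, 3965 against a 2-fold change and 3641 with a replicate block. The median log2 fold change of all members was 0.26 with library totals only, that of Mrpl genes 0.28 and that of Mrps genes 0.24. The median of Mrps genes was 0.26 with a replicate block. With each library left out, the median of Mrpl genes ran from 0.30 to 0.41 and that of Mrps genes from 0.26 to 0.38. DESeq2 size factors, upper-quartile factors, totals without mitochondrial transcripts, both low-count filters, and leaving out overlapping members kept these counts within 1.5 times and the medians within the spread between replicates. No fold change among the 33 members followed by name changed its direction while called. With library totals only 10 of them lost their call, and with a replicate block 15.

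Replicate numbers 1 and 2 occur in both groups, and the labels give no pairing. The correlation of same-numbered deviations from the group means was -0.18 for number 1 and -0.0086 for number 2. Between tumour replicate 4 and control replicate 1 it was 0.18. Deviations within a group sum to 0, so these correlations constrain each other and cannot decide whether libraries were paired. Number 3 occurs only among controls and number 4 only among tumours, so the block fit takes its fold changes from replicates 1 and 2 alone. It rests on fewer libraries and leaves fewer degrees of freedom to estimate the spread. A call lost under it was not taken as a weaker effect. The cause of the other changes was not tested. Each member had at least 54 reads in every library, so no level rests on a count of 0.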
